A study of Mus musculus with 12 samples.

Results

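Neurons that release acetylcholine share a small set of genes for making, packaging, recovering and destroying the transmitter. The set described here was the 8 genes Chat, Slc18a3, Slc5a7, Slc10a4, Ache, Prima1, Colq and Bche, chosen by name and found through their NCBI gene identifiers. All 8 were among the 45777 genes listed in each table, and 7 of them passed the filter on low values, a mean of at least 0.5 TPM (a level scaled to transcript length and to a fixed total per library). Colq did not pass. The values came from 12 RNA-seq libraries of ventral spinal cord from mouse embryos at E12.5, dissected at the brachial (forelimb) or lumbar (hindlimb) level. At each level 3 libraries carried the label Isl2 +/-, which is heterozygous for a null allele of the LIM-homeodomain factor Isl2, and 3 the label Isl2 KO, in which both alleles are null. There was no wild-type group, so every control library also had 1 null allele. An Hb9::GFP reporter guided the trimming of the tissue but the cells were not sorted, so the libraries hold motor neurons (MNs) mixed with their neighbours, and fewer cells of a type and less RNA per cell cannot be told apart. The methods name 3 heterozygous and 3 homozygous animals for these libraries, so a brachial and a lumbar library may share an embryo, and p-values between levels, which treat the 12 libraries as separate, do not allow for that. The labels do not say which libraries would share one, and Y-linked genes were detected in 2 of 3 brachial but 1 of 3 lumbar heterozygotes.

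Acetylcholine is the transmitter of all spinal MNs, and of a few interneurons in the ventral cord. Choline acetyltransferase (Chat) makes it in the cytoplasm, the vesicular transporter encoded by Slc18a3 loads it into synaptic vesicles, and after release the esterase encoded by Ache splits it so that the choline transporter encoded by Slc5a7 can return the choline to the terminal. The esterase is held in place by membrane and matrix anchors, and butyrylcholinesterase (Bche) can split the same transmitter. MN identity factors of the LIM-homeodomain family, to which Isl2 belongs, are known to promote several genes of this set in developing MNs.

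Chat lies at chr14:32408203-32465909 on the minus strand (mm10), and Slc18a3 at chr14:32462437-32464850 on the same strand. In the GENCODE M21 annotation Slc18a3 sits in intron 1 of the 16-exon Chat transcript, an arrangement known as the cholinergic gene locus, and their exons share 0 bases. The 2 start sites are 1059 bases apart. Because total RNA was sequenced, reads of unspliced Chat RNA over Slc18a3 cannot be told apart from reads of Slc18a3 itself. Slc5a7 lies at chr17:54273590-54299038 on the minus strand, and Slc10a4, an orphan transporter of cholinergic and monoaminergic vesicles, at chr5:73006904-73012955 on the plus strand.

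The sequences before the starts of these 4 genes are shown because Isl2 is a homeodomain factor and the 4 genes gave different patterns in the comparisons that follow. They come from the RefSeq table for GRCm38.p6, read 5′ to 3′ in the direction of the gene, each window opening 250 bases before its start site and ending before the first annotated exon. Capitals mark the homeodomain core ATTA or its reverse complement TAAT, which can overlap each other.
Chat, chr14:32465990-32466159: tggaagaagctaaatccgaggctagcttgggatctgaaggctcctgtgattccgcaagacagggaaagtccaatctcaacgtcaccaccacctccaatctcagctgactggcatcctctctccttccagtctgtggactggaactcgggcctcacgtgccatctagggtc
Slc18a3, chr14:32464851-32465100: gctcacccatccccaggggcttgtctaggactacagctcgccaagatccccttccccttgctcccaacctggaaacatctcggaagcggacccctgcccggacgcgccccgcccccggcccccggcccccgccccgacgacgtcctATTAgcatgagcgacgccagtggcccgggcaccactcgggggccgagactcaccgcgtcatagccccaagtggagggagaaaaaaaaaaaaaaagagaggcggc
Slc5a7, chr17:54299039-54299284: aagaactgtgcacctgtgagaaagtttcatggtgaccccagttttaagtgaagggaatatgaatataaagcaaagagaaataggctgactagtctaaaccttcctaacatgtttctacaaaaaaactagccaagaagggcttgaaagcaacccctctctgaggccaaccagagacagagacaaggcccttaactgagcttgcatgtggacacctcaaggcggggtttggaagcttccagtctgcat
Slc10a4, chr5:73006654-73006882: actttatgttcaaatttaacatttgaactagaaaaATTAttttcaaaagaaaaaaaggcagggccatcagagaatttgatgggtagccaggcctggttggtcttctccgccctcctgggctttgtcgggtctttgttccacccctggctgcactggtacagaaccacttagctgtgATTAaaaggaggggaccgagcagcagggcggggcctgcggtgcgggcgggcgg

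Of the 7 members with a window in that table, 3 held the 4-base core within 250 bases of the start the table uses, which for Prima1 lies inside the span listed for the gene. In Slc18a3 it began 104 bases before the start, in Slc10a4 at 215 and 74 bases, and in Bche at 28 bases. The core was present in 54.9% of the 32851 windows in the table, so its presence in 3 of 7 members is near what any promoter window gives. The 6-base form TAATTA was present in 0 of the 7 member windows and in 4.84% of all windows. A match is a description of the letters and not a binding site, and these libraries do not measure binding.

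The 12 libraries had 4.48 to 6.64 Gb of aligned bases and 22985 to 24194 genes above 0. Unless stated otherwise, every level given is TPM after rescaling the libraries by median-of-ratios size factors. Isl2 itself had 8.69, 8.29 and 9.68 TPM in the brachial heterozygotes and 6.01, 7.25 and 4.46 TPM in the brachial KO libraries. At the lumbar level it had 10.3, 8.40 and 9.39 TPM in heterozygotes and 7.30, 6.51 and 8.21 TPM in KO libraries. On this scale Isl2 was lower in every KO library than in the heterozygotes of its level, whereas in TPM as deposited brachial KO replicate 2 (9.08) lay above the brachial heterozygotes (8.61 to 9.04). These whole-gene values do not show which exons the reads covered. All 12 listed MN markers were detected in every group, among them Mnx1 (the gene of Hb9) at 37.4 to 66.9 TPM. The 11 skeletal muscle markers summed to only 1.605 to 2.945 TPM in a library, which bears on the anchor genes that muscle also uses.

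In the brachial heterozygotes the order from high to low was Slc5a7 (28.0 ± 1.64 TPM, mean ± SD, n = 3), Slc10a4 (24.0 ± 0.772), Slc18a3 (20.8 ± 0.497), Ache (13.4 ± 1.83), Chat (8.11 ± 0.421), Bche (1.66 ± 0.123) and Prima1 (1.48 ± 0.703). Neighbours in that order did not overlap in any library except Bche and Prima1. The synthetic enzyme thus stood below both transporters of its product and substrate in all 12 libraries. In the lumbar heterozygotes Slc10a4 (23.8 ± 4.94 TPM) and Slc18a3 (21.9 ± 5.95) came first with overlapping libraries, and Slc5a7 (15.1 ± 1.75) moved to the third place. Colq (chr14:31523082-31577863, minus strand), which encodes the collagen tail that tethers the esterase in the basal lamina of the muscle synapse, was listed at 0 in 7 of the 12 libraries and reached at most 0.113 TPM. It was not tested.

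**Figure D1:**
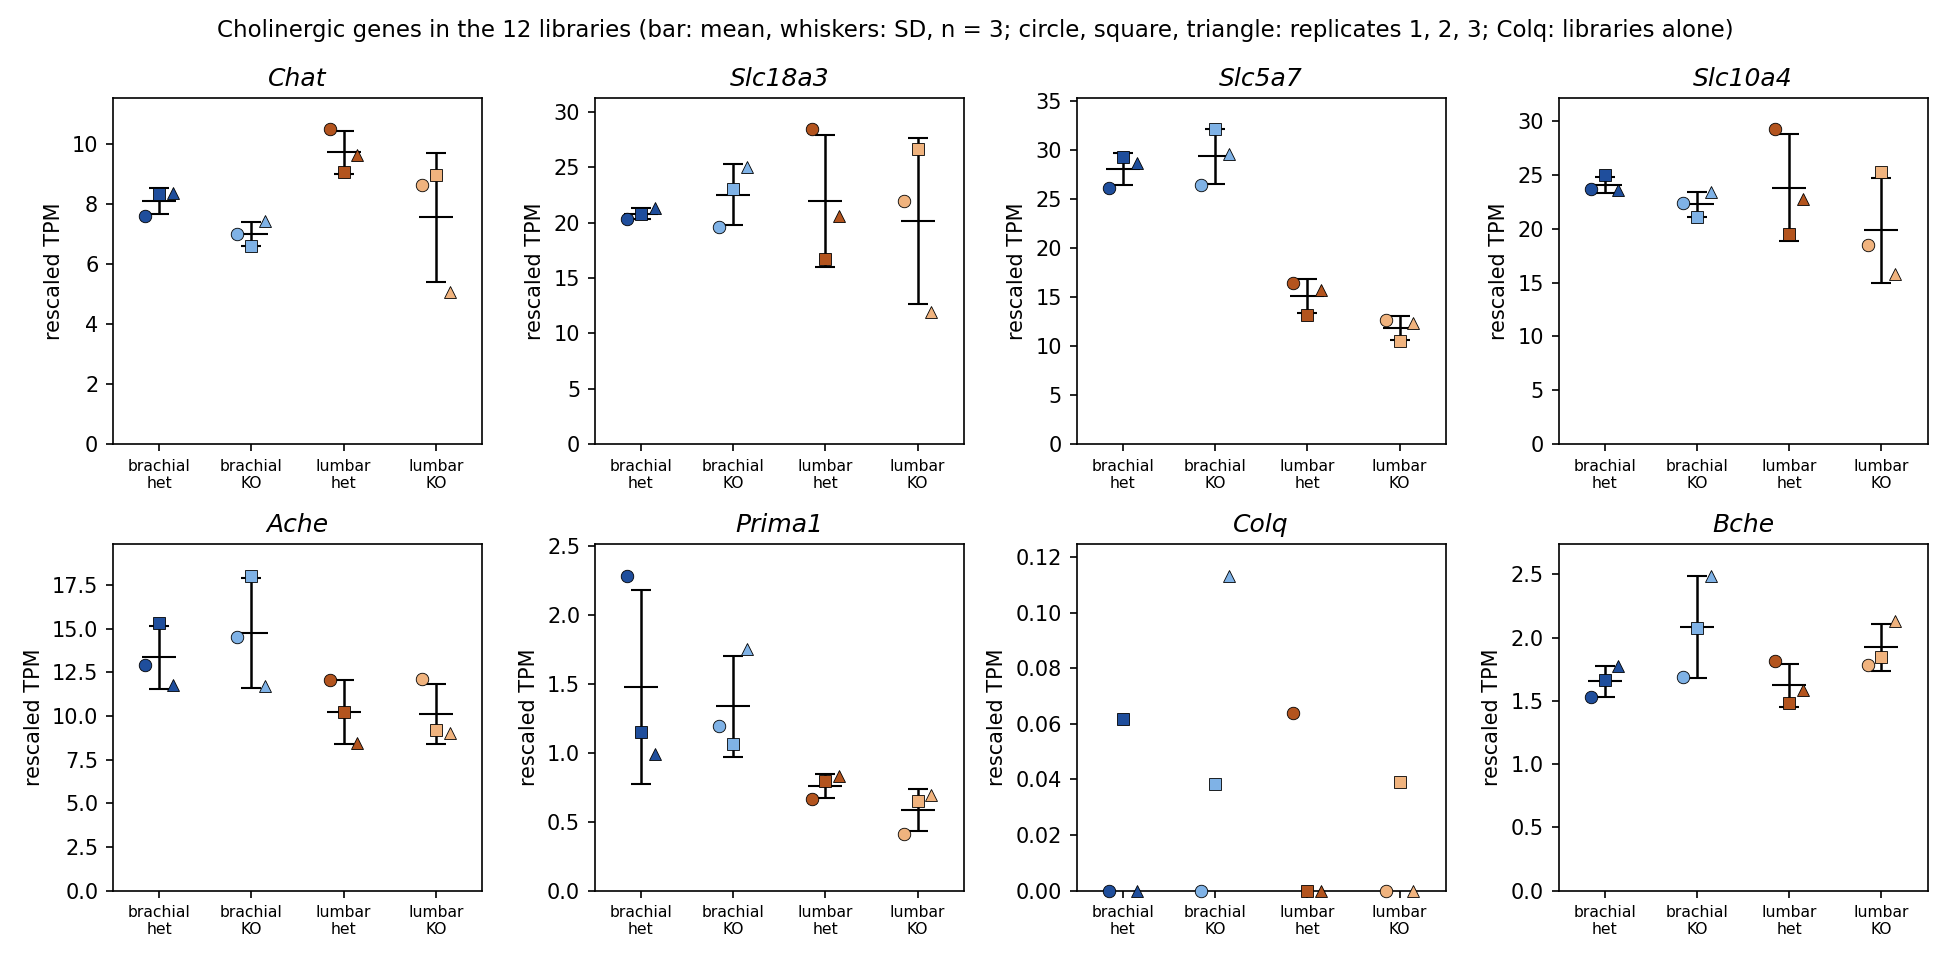
Rescaled TPM (vertical axes, each from 0) of the 8 cholinergic genes in each library of the 4 groups (horizontal axis), with the mean and SD of 3 libraries drawn for every gene but Colq. The lumbar libraries of Slc5a7, at 10.5 to 16.5 TPM, all lie under the brachial ones, at 26.1 to 32.1 TPM, while Chat, Slc18a3 and Slc10a4 overlap between the levels.

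The largest differences within the set lay between the axial levels. Slc5a7, the high-affinity choline transporter, was lower in the lumbar cord by a log2 difference of -1.10 (28.7 against 13.5 TPM). The esterase Ache and its neuronal membrane anchor Prima1 were also lower at the lumbar level, whereas Chat, Slc18a3 and Slc10a4 did not pass the test. This comparison used all 12 libraries in a limma fit with genotype as a term, and genes were called at an adjusted p under 0.05. Of all 16698 genes tested 18.5% were called, against 3 of the 7 members tested, all 3 of them lower. Called or not, 6 of the 7 had a negative difference, with a median of -0.11 beside 0.01 for all genes tested.

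Slc5a7 had 26.1, 29.2 and 28.6 TPM in the brachial heterozygotes and 26.4, 32.1 and 29.5 TPM in the brachial KO libraries. Its lumbar values were 16.5, 13.1 and 15.7 TPM in heterozygotes and 12.7, 10.5 and 12.4 TPM in KO libraries. Every lumbar library was below every brachial library. In the limma fit the log2 difference was -1.10 (SE 0.09, adjusted p = 1.98e-05), and an exact two-sided permutation test over the 12 libraries gave p = 0.00216, the smallest that 6 against 6 allows. Among all genes tested 8.31% did not overlap between the levels, and among the members 2 of 7 did not, Slc5a7 and Prima1. The difference was -0.89 in the heterozygotes alone and -1.30 in the KO libraries alone, and it stayed between -1.15 and -1.04 when any library was left out.

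Prima1 (chr12:103194453-103242719, minus strand) encodes the proline-rich protein that fixes the esterase to neuronal membranes. It had 2.28, 1.15 and 0.993 TPM in the brachial heterozygotes and 1.19, 1.06 and 1.75 TPM in the brachial KO libraries. Its lumbar values were 0.661, 0.791 and 0.828 TPM in heterozygotes and 0.407, 0.648 and 0.692 TPM in KO libraries. The levels did not overlap, although the first brachial heterozygote stood above the other brachial libraries. The log2 difference was -0.93 (SE 0.22, limma adjusted p = 0.0128, exact permutation p = 0.00216), on the scale of log2(TPM + 0.1), which understates changes of genes this low.

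Ache (chr5:137288247-137294466, plus strand) had 12.95, 15.4 and 11.8 TPM in the brachial heterozygotes and 14.5, 18.05 and 11.7 TPM in the brachial KO libraries. In the lumbar cord it had 12.1, 10.2 and 8.43 TPM in heterozygotes and 12.1, 9.18 and 9.05 TPM in KO libraries. The levels overlapped at 12 TPM, where a lumbar library of each genotype lay above the lowest brachial ones. The log2 difference was -0.46 (SE 0.13, limma adjusted p = 0.0234), and the call was lost, with an adjusted p of 0.0546 to 0.0621, without any of 5 libraries: brachial heterozygote replicate 2, brachial KO replicate 2, lumbar heterozygote replicate 3 and lumbar KO replicates 2 and 3. The log2 difference without them ranged from -0.42 to -0.38.

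The remaining members did not pass, and their intervals give the range of differences that these libraries allow. The log2 difference of Chat was 0.16 (95% interval -0.11 to 0.43), that of Slc18a3 -0.09 (-0.48 to 0.29), that of Slc10a4 -0.11 (-0.36 to 0.13) and that of Bche -0.06 (-0.33 to 0.20). Each of these intervals leaves out a drop of the size seen for Slc5a7. Chat depended on 1 library: without lumbar KO replicate 3 its log2 difference was 0.29, higher in the lumbar cord, with a limma adjusted p of 0.0159.

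**Figure D2:**
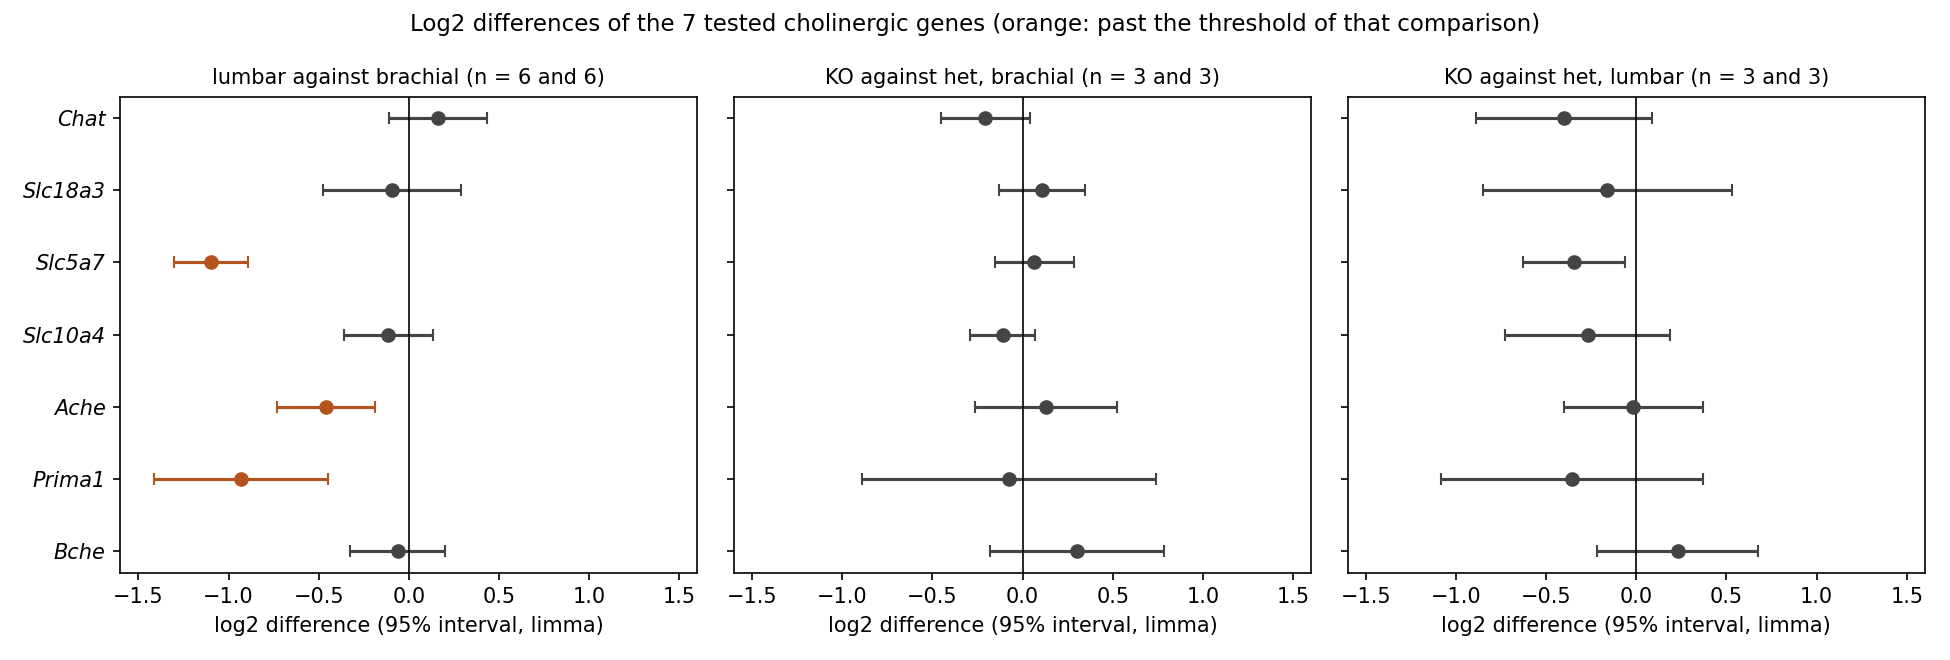
Log2 differences (horizontal axes) with 95% intervals from limma for the 7 tested genes in 3 comparisons, lumbar against brachial and KO against heterozygote at each level, with calls in orange. Calls are present only in the left panel, for Slc5a7 (-1.10), Prima1 (-0.93) and Ache (-0.46).

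A ratio of 2 genes within a library is not moved by a factor that acts on both, such as the size factor. For Slc5a7 over Chat the 6 brachial libraries ranged from 3.42 to 4.84 and the 6 lumbar libraries from 1.17 to 2.43. These ranges did not overlap (log2 difference of the ratio -1.27, exact permutation p = 0.00216, adjusted p = 0.013 over the 24 ratio comparisons made). Slc18a3 over Chat, the 2 genes of the nested locus, was 2.49 to 3.47 in the brachial and 1.84 to 2.97 in the lumbar libraries, which overlapped (exact permutation p = 0.0866, adjusted p = 0.171).

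With Mnx1 as the denominator, Slc5a7, Slc18a3 and Slc10a4 were all lower at the lumbar level. Slc18a3 over Mnx1 was 0.454 to 0.549 in the brachial and 0.320 to 0.424 in the lumbar libraries, and Slc10a4 over Mnx1 was 0.479 to 0.605 and 0.331 to 0.463 (exact permutation p = 0.00216 and adjusted p = 0.013 for both). Neither gene overlapped between levels on this scale. Chat over Mnx1 was 0.152 to 0.203 and 0.136 to 0.216, and overlapped (exact permutation p = 0.509). The log2 difference of Mnx1 between levels was 0.25, higher in the lumbar cord (SE 0.13, limma adjusted p = 0.204), so these ratios rest in part on a denominator that did not pass the test itself.

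**Figure D3:**
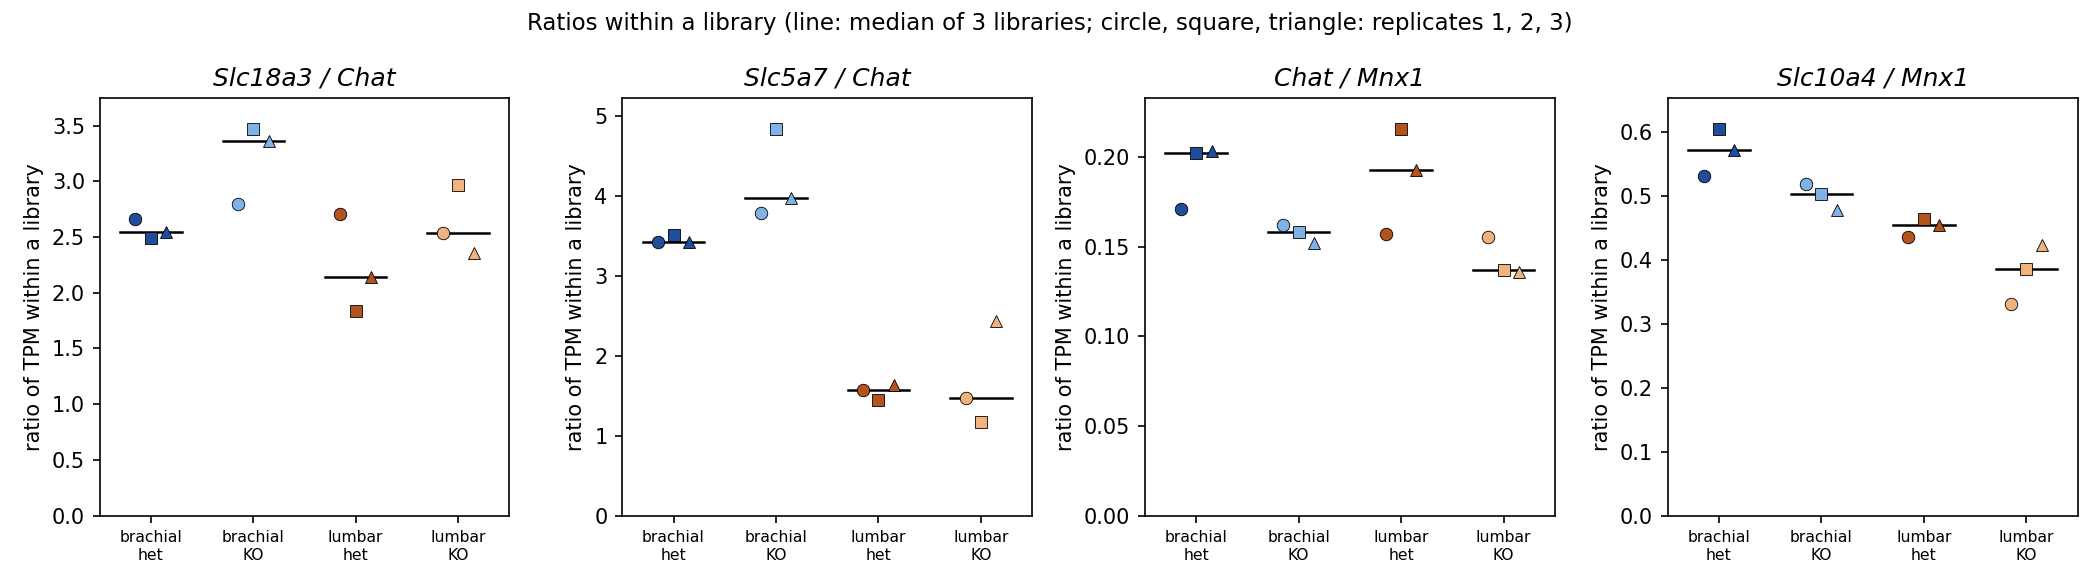
Ratios of TPM within a library (vertical axes, each from 0) for Slc18a3 over Chat, Slc5a7 over Chat, Chat over Mnx1 and Slc10a4 over Mnx1 in the 4 groups (horizontal axis), with the median of 3 libraries as a line. Slc5a7 over Chat falls from 3.42 to 4.84 in the brachial libraries to 1.17 to 2.43 in the lumbar ones, and Chat over Mnx1 lies lower in KO than in heterozygote libraries at each level.

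The KO comparisons asked whether loss of Isl2 changed the transmitter genes of MNs. At neither level did any member pass the KO threshold used here. It asks for a log2 change beyond 0.5 in either direction with an unadjusted limma p under 0.05. The study gave these cut-offs for lower genes and used DESeq2, so the calls here are not its own. At the brachial level 0 of 7 members passed, against 3.08% of the 16768 genes tested (146 lower and 371 higher). Also 0 of 7 had an unadjusted limma p under 0.05, beside 13.9% of all genes. At this level 3 of 7 were lower, with a median log2 difference of 0.06 beside -0.01 for all genes tested. At the lumbar level 0 of 7 passed, against 1.77% of 16620 genes (132 lower and 163 higher). Of the 7, 1, Slc5a7, had an unadjusted limma p under 0.05, beside 4.86% of all genes. Here 6 of 7 were lower, with a median of -0.27 beside -0.01, and 11 of the 12 MN markers were lower too, with a median of -0.25. After rescaling, Chat was lower in all KO libraries than in all heterozygote libraries of the same level, but in TPM as deposited the genotypes overlapped at both levels.

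Chat had 7.62, 8.33 and 8.37 TPM in the brachial heterozygotes and 6.99, 6.62 and 7.44 TPM in the brachial KO libraries. In the lumbar cord it had 10.5, 9.07 and 9.63 TPM in heterozygotes and 8.63, 8.97 and 5.08 TPM in KO libraries. On this scale the genotypes did not overlap at either level, and lumbar KO replicate 3 was below the other 11 libraries. In TPM as deposited Chat had 7.55 to 8.77 in the brachial heterozygotes against 7.22 to 8.29 in the brachial KO libraries, and 8.64 to 10.6 against 4.63 to 9.01 at the lumbar level. The log2 difference was -0.21 at the brachial level (SE 0.11, limma adjusted p = 0.384) and -0.40 at the lumbar level (SE 0.21, limma adjusted p = 0.999), and exact permutation gave p = 0.1 for each, the smallest that 3 against 3 allows. Leaving out lumbar KO replicate 3 brought the lumbar difference to -0.14, and leaving out lumbar KO replicate 2 brought it to -0.55, past the KO threshold. Lumbar KO replicate 3 also had the lowest Slc18a3 (11.97 TPM), Slc10a4 (15.8 TPM) and Mnx1 (37.4 TPM) of the 12 libraries. Its sum of the 7 floor plate markers (168.6 TPM) was the lowest too. It had the largest share of TPM in 5 abundant small RNAs (38.2%, against 23.7% to 36.4% in the others). The part of these features in the result was not tested. Y-linked genes were detected in 1 of 3 lumbar heterozygotes and 2 of 3 lumbar KO libraries, and with embryo sex as a term the lumbar difference of Chat was -0.31.

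Slc10a4 joined Chat at the brachial level, with 23.6, 24.9 and 23.6 TPM in heterozygotes and 22.4, 21.1 and 23.4 TPM in KO libraries. The gap between the genotypes was under 1 TPM. The log2 difference was -0.11 (SE 0.08, limma adjusted p = 0.482). Chat and Slc10a4 were the 2 of 7 members whose brachial genotypes did not overlap, beside 20.1% of all genes tested. In the TPM as deposited, without the rescaling, the median of all genes was shifted by 0.17 towards the brachial KO libraries. On that scale Chat had a log2 difference of -0.03 and Slc10a4 of 0.06, which are -0.19 and -0.09 relative to the median of all genes, and the genotypes overlapped for both genes. In the lumbar cord Slc10a4 had 29.2, 19.5 and 22.7 TPM in heterozygotes and 18.4, 25.3 and 15.8 TPM in KO libraries, which overlapped. The log2 difference there was -0.27 (95% interval -0.73 to 0.19, limma adjusted p = 0.999), and it was -0.11 without lumbar heterozygote replicate 1 or with embryo sex as a term, -0.12 without lumbar KO replicate 3 and -0.46 without lumbar KO replicate 2.

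At the lumbar level the 2 members without overlap after rescaling were Chat and Slc5a7, beside 9.94% of all genes tested, and in TPM as deposited both overlapped. Slc5a7 had a log2 difference of -0.35 (SE 0.12, unadjusted p = 0.0223, limma adjusted p = 0.999), from 15.1 ± 1.75 TPM in heterozygotes to 11.8 ± 1.18 TPM in KO libraries (SD, n = 3). Its unadjusted limma p was 0.0613 with TPM as deposited, and 0.0794, 0.0667 and 0.0708 without lumbar heterozygote replicate 1, lumbar heterozygote replicate 3 and lumbar KO replicate 2. At the brachial level the same gene gave 0.06 (95% interval -0.15 to 0.28) with overlapping genotypes. The difference between these KO effects was -0.41 (SE 0.16, unadjusted p = 0.0218, limma adjusted p = 0.812). No member passed an adjusted p of 0.05 in this test of the difference, and neither did any of the 16698 genes tested (0% called, with 738 genes at an unadjusted limma p under 0.05).

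Slc18a3 kept overlapping genotypes at both levels. It had 20.3, 20.8 and 21.3 TPM in the brachial heterozygotes and 19.6, 23.0 and 25.0 TPM in the brachial KO libraries, then 28.4, 16.7 and 20.6 TPM and 21.9, 26.6 and 11.97 TPM in the lumbar groups. The brachial heterozygotes lay within about 1 TPM of each other, while the lumbar groups spread widely. The 95% intervals of the log2 difference were -0.13 to 0.35 at the brachial level and -0.85 to 0.53 at the lumbar level. Among the esterase genes, Ache had intervals of -0.26 to 0.53 and -0.40 to 0.37, Prima1 of -0.89 to 0.74 and -1.08 to 0.37, and Bche of -0.18 to 0.78 and -0.22 to 0.68. The lumbar interval of Prima1, a gene under 1 TPM there, holds a change as large as its difference between levels.

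The within-library ratios were also compared between genotypes. Chat over Mnx1 was 0.171 to 0.203 in the brachial heterozygotes and 0.152 to 0.162 in the brachial KO libraries. At the lumbar level it was 0.157 to 0.216 in heterozygotes and 0.136 to 0.155 in KO libraries. The genotypes did not overlap at either level (log2 difference of the ratio -0.28 and -0.39, exact permutation p = 0.1 each, adjusted p = 0.171). Slc18a3 over Chat was 2.49 to 2.66 in the brachial heterozygotes and 2.80 to 3.47 in the brachial KO libraries, again without overlap (exact permutation p = 0.1, adjusted p = 0.171). The other ratios over Chat, which share its values, separated the same way at this level, Slc5a7 over Chat at 3.42 to 3.51 against 3.78 to 4.84 and Slc10a4 over Chat at 2.82 to 3.10 against 3.14 to 3.20 (exact permutation p = 0.1 and adjusted p = 0.171 for both). At the lumbar level the genotypes overlapped in all 3 ratios over Chat. Slc10a4 over Mnx1 was also lower in KO libraries at both levels without overlap, with log2 differences of -0.19 and -0.25 (exact permutation p = 0.1 each, adjusted p = 0.171). In Slc18a3 over Mnx1, Slc5a7 over Mnx1 and Ache over Bche the genotypes overlapped at both levels (exact permutation p of at least 0.2). The brachial log2 differences of these ratios were 0.03, -0.01 and -0.18, and the lumbar ones -0.15, -0.33 and -0.26. How often ratios of other genes separate the genotypes was not tested.

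A fit of genotype over both levels, with level as a term, was added after these values were seen. Chat had a log2 difference of -0.30 between KO and heterozygote libraries (SE 0.12, unadjusted p = 0.0298, limma adjusted p = 0.33), and of -0.18 without lumbar KO replicate 3. Its unadjusted limma p was 0.188 with TPM as deposited (log2 difference -0.21), 0.0658 without lumbar heterozygote replicate 1 and 0.0522 without lumbar heterozygote replicate 3. On the rescaled values an exact permutation of the genotypes within each level gave p = 0.005, the smallest that the 400 regroupings allow. Bche (chr3:73635805-73708436, minus strand), the secondary esterase, was the member with the most positive difference, 0.27 (SE 0.12, limma adjusted p = 0.356, exact permutation p = 0.03). Its values were 1.53 to 1.77 TPM against 1.69 to 2.49 TPM at the brachial level and 1.48 to 1.81 TPM against 1.79 to 2.13 TPM at the lumbar level. In this fit 0.0419% of the 16698 genes were called at an adjusted p under 0.05, and 0 of the 7 members were, with 1 of 7 (Chat) at an unadjusted limma p under 0.05, beside 14% of all genes. In the same fit 5 of 12 MN markers had an unadjusted limma p under 0.05, all lower in KO libraries, on a list that includes Isl2 itself. So did 4 of 8 blood markers, all higher. The 9 listed blood markers, mostly embryonic and adult globins, summed to 2159 to 3831 TPM in the brachial heterozygotes and 3084 to 6459 TPM in the brachial KO libraries, and to 2157 to 3456 TPM and 2838 to 4643 TPM at the lumbar level. None of the 9 was at 0 in all libraries, and the part of blood in the KO differences was not tested. Because these tests were chosen for values already seen, their p-values describe the same separation again.

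Across single libraries the vesicular transporter followed Mnx1 at the lumbar level. Over the 6 lumbar libraries Slc18a3 and Mnx1 gave Pearson's r = 0.98 (exact permutation p = 0.00139, adjusted p = 0.0194 over 14 relations) and Spearman's rho = 1.0 (exact permutation p = 0.00278, adjusted p = 0.0389). Without the 2 libraries farthest from the median of Mnx1 r was 0.99, and for deviations from the genotype means it was 0.99. Slc10a4 gave r = 0.85 (exact permutation p = 0.0375, adjusted p = 0.233), which fell to 0.57 without the 2 farthest libraries. Slc5a7 gave r = 0.08 over the same libraries (exact permutation p = 0.85, adjusted p = 0.964). At the brachial level Mnx1 covered only 41.2 to 48.8 TPM, and Slc18a3 gave r = 0.57 (exact permutation p = 0.249, adjusted p = 0.58). The other relations also had adjusted p-values of at least 0.233. Only members were set against Mnx1, so whether genes of other ventral cell types follow it over these libraries was not tested.

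**Figure D4:**
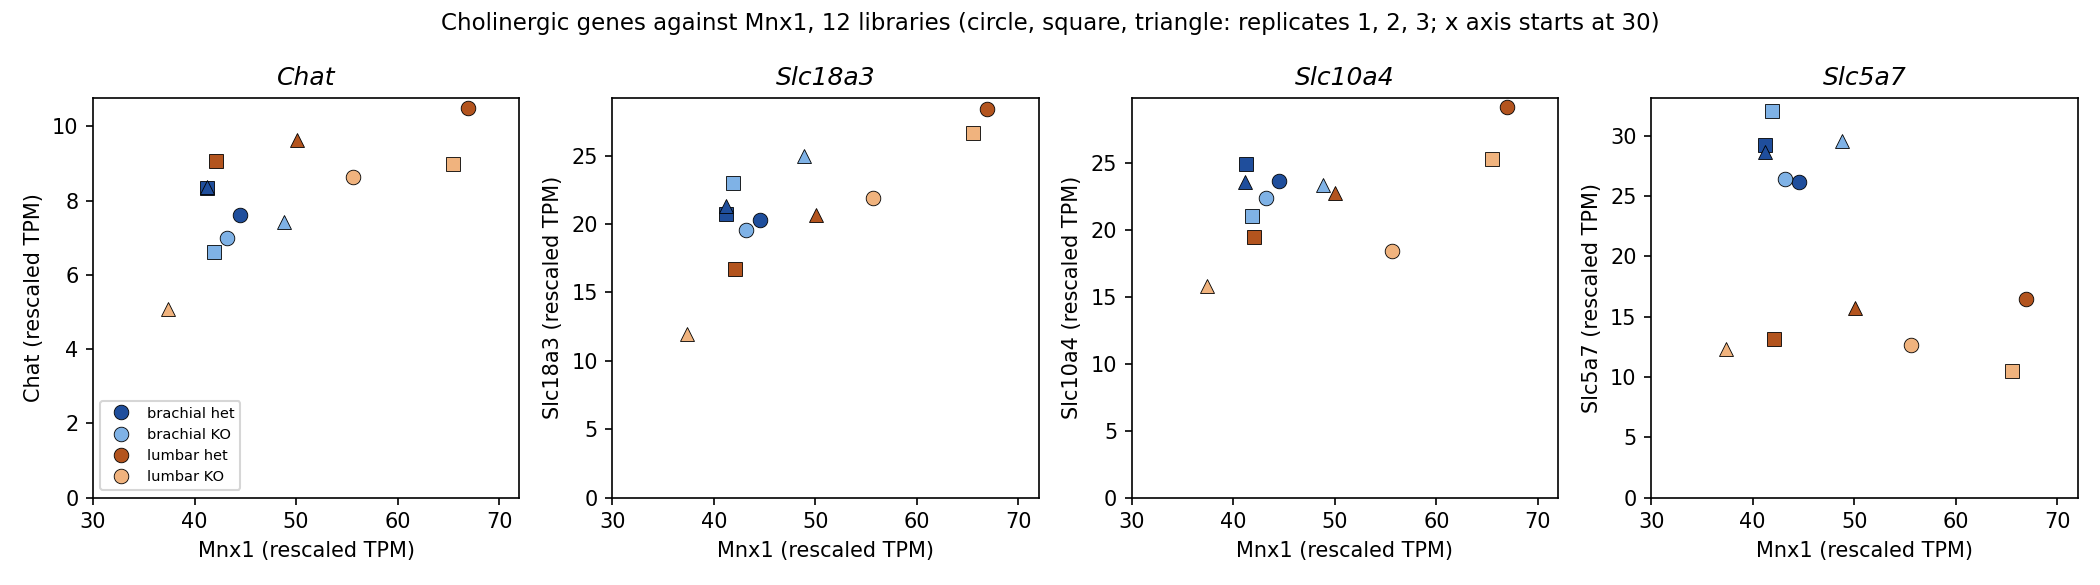
Rescaled TPM of Chat, Slc18a3, Slc10a4 and Slc5a7 (vertical axes, from 0) against that of Mnx1 (horizontal axes, starting at 30) in the 12 libraries, coloured by group. The lumbar points of Slc18a3 rise with Mnx1 from 11.97 TPM at a Mnx1 of 37.4 TPM to 28.4 TPM at 66.9 TPM, while those of Slc5a7 stay between 10.5 and 16.5 TPM.

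The genes whose pattern over the 12 libraries was most like that of Chat, among 14920 genes with a mean of at least 1 TPM, were Mob3a, Cdr2, Unc45a, Atad3a and Stk32c, with Pearson's r of log2 values from 0.87 to 0.88. Slc10a4 ranked 244 (r = 0.66) and Slc18a3 ranked 253 (r = 0.66) by this measure. For deviations from the 4 group means the first 5 were Rgl1, Kank1, BC024139, Fhdc1 and Kcnh2, with r from 0.956 to 0.965. Slc18a3 then ranked 44 (r = 0.90) and Slc10a4 ranked 500 (r = 0.73). Slc5a7 had r of -0.20 and -0.08 with Chat by these measures. All these correlations share the same libraries, among them lumbar KO replicate 3 with its low Chat, and are given as a description.

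Over 5 further lists of genes that supply, regulate or surround the pathway, 10 of 50 genes tested were called between levels (20%, beside 18.5% of all genes tested). Of 12 tested genes of choline uptake and phosphocholine metabolism, the sources of choline other than reuptake, 2 were lower and 1 higher in the lumbar cord, and 0 passed the KO threshold at either level, with 1 at an unadjusted limma p under 0.05 at each. Slc44a5, of the choline transporter-like family, had a log2 difference of -0.60 (15.4 against 10.3 TPM, limma adjusted p = 0.00248), Pnpla6, a phospholipase of phosphatidylcholine, -0.33 (limma adjusted p = 0.0102) and the choline kinase Chkb 0.22 (limma adjusted p = 0.0449). The median of the list was -0.06 beside 0.01 for all genes tested. Of 10 tested genes of acetyl-CoA supply, the other substrate of Chat, 0 were called by limma between levels or in a KO comparison, with 1 at an unadjusted p under 0.05 between levels, 0 in each KO comparison and 2 in the fit over both levels. At the brachial level 6 of these 10 did not overlap between genotypes after rescaling, beside 20.1% of all genes tested, 5 lower and 1 (Cs, citrate synthase) higher in KO libraries, with a median of -0.10 over the list.

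Among 6 tested genes of other vesicular transmitter transporters and SV2 vesicle proteins, 3 were lower and 1 higher in the lumbar cord, beside 18.5% of all genes called. The 3 lower genes were the SV2 family in full, which encode glycoproteins of synaptic vesicles. Sv2c had 8.73 to 16.8 TPM in the brachial and 3.81 to 7.74 TPM in the lumbar libraries, without overlap (log2 difference -0.88, limma adjusted p = 0.0091). Sv2b gave -0.62 (limma adjusted p = 0.00103) and Sv2a -0.39 (limma adjusted p = 0.0112), and Slc18a2, the monoamine transporter, 0.47 at only 1.88 against 2.69 TPM (limma adjusted p = 0.0488). Slc17a6, the vesicular glutamate transporter of spinal interneurons, had 54.3 and 51.4 TPM at the brachial and lumbar levels (log2 difference -0.08, limma adjusted p = 0.391).

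Of 8 tested genes of the muscle synapse and its matrix, 1 was called lower in the lumbar cord, beside 18.5% of all genes called. Dok7, the cytoplasmic activator of the receptor kinase MuSK, had 2.13 to 4.32 TPM in the brachial and 1.09 to 1.84 TPM in the lumbar libraries (log2 difference -0.94, limma adjusted p = 0.00184). Agrn, the nerve-derived organiser of that synapse, had 129 and 122 TPM (log2 difference -0.07). At the brachial level Dag1, the matrix receptor dystroglycan, passed the KO threshold at 0.53 (unadjusted p = 0.0292, limma adjusted p = 0.357), with 12.46 to 13.47 TPM in the heterozygotes and 14.05, 18.1 and 25.6 TPM in the KO libraries. The call was lost without any library but brachial KO replicate 1, and without brachial KO replicate 3 the log2 difference of Dag1 was 0.30.

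Of 14 tested genes of the LIM-homeodomain complex and related regulators, Lmo4 was lower (-0.31, limma adjusted p = 0.0134) and Lmo1 higher (0.27, limma adjusted p = 0.00521) in the lumbar cord, both LIM-only proteins. Isl1, the close relative of Isl2, had a log2 difference of 0.09 between levels, and of -0.27 and -0.31 between KO and heterozygote libraries at the brachial and lumbar levels (unadjusted p = 0.0151 and 0.0256, limma adjusted p = 0.357 and 0.999). It lies on the same side as Chat at both levels but did not pass the KO threshold, which asks for 0.5.

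In the KO comparisons 2 of the 12 MN markers, Prph (-0.78) and Etv4 (-1.005), passed the KO threshold at the lumbar level, both lower in KO libraries, beside 1.77% of all genes. Of the 12 only Isl2 (-0.61) passed at the brachial level, beside 3.08%. At an unadjusted limma p under 0.05 stood 5 of the 12 at the lumbar level, beside 4.86% of all genes, and 4 of the 12 at the brachial level, beside 13.9%, all of them lower in KO libraries. The 12 include Isl2, whose null allele defines the groups. They also include Prph and Etv4, which the study reported as lower from these libraries, so these counts are no separate readout of MNs. Between levels 18.5% of all genes were called. Of the 12 MN markers 3 were lower in the lumbar cord: Prph, a neuronal intermediate filament, by a log2 difference of -2.62 (284 against 48.4 TPM), Etv4, a factor of motor pools, by -1.597, and Aldh1a2, the retinoic acid synthase of limb MNs, by -0.49. The other 9, Mnx1 and Isl1 among them, were not called. Markers of microglia were lower in the lumbar cord in 4 of 7 cases (Csf1r, P2ry12, Cx3cr1 and C1qa), of endothelium in 3 of 7 (Kdr, Cldn5 and Tek), of Schwann cells and crest in 2 of 5 (Erbb3, and Fabp7, which the progenitor list also holds) and of mesenchyme in 2 of 5 (Pdgfra and Col1a2), and none of these lists had a higher call. Markers of blood (8 tested), floor plate (6) and sensory neurons (4) gave 0 calls between levels by limma, with 0, 1 and 1 at an unadjusted p under 0.05. Of 10 progenitor markers 4 were higher (Hes5 and Vim among them) and 3 lower (Slc1a3 and Olig2 among them). The 4 markers of ventral V0 interneurons, some of which are cholinergic, gave 0 calls between levels by limma and 0 at an unadjusted p under 0.05, with sums of 10.4 to 17.3 TPM in the brachial and 11.1 to 16.4 TPM in the lumbar libraries. Of the preganglionic MN markers, cholinergic neurons of the thoracic and upper lumbar cord, 1 of 3 tested was called, Zeb2 at 0.23, and Gata3 passed the KO threshold at the brachial level at 0.71 (unadjusted p = 0.0162, limma adjusted p = 0.357). The part of these cells in the differences of Slc5a7, Prima1 and Ache was not tested.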

How the data were processed

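Total RNA from 12 ventral spinal cord samples was made by the authors into stranded libraries depleted of ribosomal RNA. Per the labels and methods, Trimmomatic 0.38, HISAT2 2.1.0 and Bowtie2 2.3.4.1 (mm10) and StringTie 2.1.3b were used. The strand setting is not given in the sources used here. The deposited TPM values were scaled by the authors to a fixed total per library, the deposited FPKM values to gene length and mapped fragments, and the deposited coverage values are mean per-base signal. These tables hold no counts, so the aligned bases were taken from coverage divided by FPKM, and no counting interval can be given.

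Size factors (median of ratios, 0.896 to 1.25) were applied to TPM. Then limma 3.58.1 in R 4.3.3, with a trended eBayes, was run on log2(TPM + 0.1) for all genes averaging 0.5 or more, and p-values were adjusted by Benjamini-Hochberg over all of these genes. The fits were KO against heterozygote at each level, lumbar against brachial with genotype as a term, and the interaction. Exact permutation tests were two-sided. The analysis was tested on simulated data. Symbols came from RefSeq GRCm38.p6 (45679 of 45777 identifiers), with identical coordinates for all 8 members. Figures and ratios were made in Python 3.11.15.

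The members and lists were chosen with earlier results of these data known. Named genes are all members and the 5 genes most like Chat by each measure. From each further list they are genes called between levels, or past the KO threshold without overlap, at most 4 a list. Genes named outside that rule (Isl1, Mnx1, Agrn, Slc17a6, Cs, Nos1) were chosen after their values were seen. P-values rest on the spread between these libraries, and those between levels do not allow for a shared embryo.

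The alternatives tried were a pseudocount of 0.001 or 1, dropping the filter or raising it to 1 TPM, TPM as deposited, quantile normalization, FPKM, coverage, an untrended eBayes, replicate blocks, a single fit of all 12 libraries, each genotype alone and leaving out each library. The fit over both levels and a term for embryo sex were added after the data were seen. Heterozygote and KO libraries of 1 number had correlated deviations of 0.108, 0.306 and 0.0609 (brachial) and 0.154, -0.3 and -0.114 (lumbar), so numbers were not used to pair libraries.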

Additional observations from a re-analysis of the deposited data

Results flagged for a closer look

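The KO effect on Slc5a7, the choline transporter, differed between the levels by an unadjusted test. The log2 difference of KO against heterozygote was 0.06 in the brachial cord and -0.35 in the lumbar cord, and the difference of these was -0.41 (SE 0.16, unadjusted p = 0.0218). It did not pass adjustment over all genes (limma adjusted p = 0.812). The unadjusted p was above 0.05 when same-numbered brachial and lumbar libraries were taken as 1 embryo (0.0544), and without brachial heterozygote replicate 1 (0.0556), brachial KO replicate 2 (0.0578), lumbar heterozygote replicate 1 (0.0562) or lumbar KO replicate 2 (0.0563). It was the 1 member of 7 with an unadjusted p under 0.05 in this limma test, which 738 of all 16698 genes also reached.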

How the results depend on the processing

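The 3 calls between levels were made under every alternative run on all 12 libraries, and 0 members were called in the KO, interaction or both-level fits under these. With heterozygotes alone or KO libraries alone 1 member, Slc5a7, was called between levels; these fits hold fewer libraries. Leaving out each library gave 2 to 3 calls between levels and 0 to 1 past the lumbar KO threshold, the 1 being Chat. The replicate block left 3 calls between levels and 0 in the other fits and changed no other call; taking same-numbered brachial and lumbar libraries as 1 embryo also left 3, although 3 of 6 such pairs differed in the detection of Y-linked genes.

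Small differences changed sign. With TPM as deposited Slc10a4 (0.06) and Prima1 (0.088) turned positive at the brachial level, and Slc18a3 over both levels (0.07), as the median of all genes shifted by 0.17 at the brachial level, by -0.14 between levels and by 0.01 at the lumbar level. Coverage gave Prima1 0.15 at the brachial level. A term for embryo sex gave Slc18a3 0.047 at the lumbar level and 0.040 over both, and heterozygotes alone gave it 0.041 between levels; the cause was not tested. Leaving out each library in turn gave, at the brachial level, Prima1 -0.30 to 0.27, Slc5a7 -0.0015 to 0.14 and Ache -0.024 to 0.28. At the lumbar level it gave Slc18a3 -0.40 to 0.18 and Ache -0.15 to 0.11. For the interaction it gave Ache -0.30 to 0.0078, Bche -0.21 to 0.060, Chat -0.34 to 0.065 and Slc18a3 -0.51 to 0.067. Between levels it gave Slc18a3 -0.20 to 0.071, and over both levels Slc18a3 -0.12 to 0.14 and Ache -0.019 to 0.12.

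The number of all genes past the KO threshold moved too. At the brachial level it was 517 (146 lower and 371 higher). It became 1248 with TPM as deposited, 793 with no filter and 341 with a pseudocount of 1. It was 1382 without brachial KO replicate 1, and 278 or 281 without brachial heterozygote or KO replicate 3. At the lumbar level it was 295 (132 lower and 163 higher). There it became 620 with no filter, 179 with a pseudocount of 1 and 451 without lumbar KO replicate 2. Between levels 3095 genes were called, and 2061 without brachial heterozygote replicate 2. Tests on counts, planned in case the tables held any, could not be run.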
